A study of Mus musculus with 28 samples.

Results

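The 36 genes of glucose breakdown and glycogen turnover described here were followed in mouse tibialis anterior muscle, out of 55359 Ensembl genes that the count tables of both cohorts hold. The genes were listed by symbol and matched to Ensembl identifiers. They cover 7 steps: glucose uptake and phosphorylation (4 genes), upper glycolysis (7), lower glycolysis (7), pyruvate and lactate (4), a regulatory group around fructose 2,6-bisphosphate, fructose 1,6-bisphosphatase and glycerol 3-phosphate (4), glycogen synthesis (6) and glycogen breakdown (4). All 36 were measured, and all 36 passed the low-count filter in both cohorts.

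The libraries came from a study of centronuclear myopathies, inherited muscle disorders in which nuclei sit in the middle of the fibre, and asked how tamoxifen changes the transcriptome of mouse models. Poly(A) RNA of 28 mice aged 8 weeks, on a C57BL/6N background, was sequenced in 2 cohorts with 4 mice in each of 7 groups. The dnm2 cohort held wild-type (WT) mice on placebo, WT mice on tamoxifen, Dnm2 S619L/+ mice on placebo and Dnm2 S619L/+ mice on tamoxifen. The bin1 cohort held WT mice on placebo, Bin1 mck-/- mice on placebo and Bin1 mck-/- mice on tamoxifen, with no WT mice on tamoxifen. Dnm2 S619L/+ mice carry a heterozygous point mutation of the membrane-fission GTPase dynamin 2 in all cells, so tissues other than muscle carry it too. In Bin1 mck-/- mice the membrane-curving protein amphiphysin 2 is deleted under the muscle creatine kinase promoter, that is, in striated muscle only. Tamoxifen was given in the diet, and its dose and duration are not given in the sources used here. Total reads on genes ran from 15586333 to 109710886 per mouse in the dnm2 cohort and from 24671835 to 35136327 in the bin1 cohort.

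Fast muscle fibres make ATP by breaking glycogen and blood glucose down to pyruvate and lactate. Glycogen phosphorylase releases the glucose units, and phosphorylase kinase, built of several subunits, switches it on when calcium rises during contraction. Several steps have a muscle isoform (Pfkm, Aldoa, Pgam2, Eno3, Pygm) beside isoforms that dominate in liver, brain or most other cells (Pfkl, Pfkp, Aldoc, Pgam1, Eno1).

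Promoters are shown for 3 genes of glycogen breakdown, all lower in Dnm2 S619L/+ mice, and for Fbp2, which rose with tamoxifen in both mutants. Each is the 250 bases before the transcription start, 5′ to 3′, from RefSeq on GRCm38.p6, a build other than the one the counts were made on. Capitals mark E-boxes and a MEF2-like site. An E-box is CANNTG, a motif that myogenic factors share with other transcription factors. The MEF2-like site is CTA and TAG with 4 bases of any kind between them. Both motifs were searched on both strands, and each reads as itself on the other strand.
Pygm, chr19:6384158-6384407, plus strand: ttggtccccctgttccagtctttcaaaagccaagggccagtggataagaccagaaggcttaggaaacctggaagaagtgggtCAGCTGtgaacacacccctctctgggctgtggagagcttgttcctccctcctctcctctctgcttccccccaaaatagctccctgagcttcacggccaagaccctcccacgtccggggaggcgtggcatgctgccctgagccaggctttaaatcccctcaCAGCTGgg
Phka1, chrX:102644247-102644496, minus strand: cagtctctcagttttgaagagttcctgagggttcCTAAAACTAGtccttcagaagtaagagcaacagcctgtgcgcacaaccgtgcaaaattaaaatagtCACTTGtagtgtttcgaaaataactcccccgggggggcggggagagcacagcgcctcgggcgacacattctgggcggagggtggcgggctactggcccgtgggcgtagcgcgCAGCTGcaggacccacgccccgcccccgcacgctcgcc
Phkg1, chr5:129879089-129879338, minus strand: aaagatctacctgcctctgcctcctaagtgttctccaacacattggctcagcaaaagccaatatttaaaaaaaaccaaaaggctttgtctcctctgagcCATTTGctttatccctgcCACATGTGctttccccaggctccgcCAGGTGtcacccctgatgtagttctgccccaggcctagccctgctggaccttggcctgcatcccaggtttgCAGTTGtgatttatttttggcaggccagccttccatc
Fbp2, chr13:62858401-62858650, minus strand: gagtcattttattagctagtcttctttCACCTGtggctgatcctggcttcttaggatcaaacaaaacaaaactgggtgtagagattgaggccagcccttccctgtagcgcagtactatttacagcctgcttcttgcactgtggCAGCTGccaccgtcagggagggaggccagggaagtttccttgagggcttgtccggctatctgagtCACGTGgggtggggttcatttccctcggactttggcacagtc
Pygm held 2 E-boxes, Phka1 2, Phkg1 5 and Fbp2 3, and 2 of those in Phkg1 overlap within CACATGTG. At least 1 E-box stood in 66.2% of all 32851 RefSeq promoter windows of this length. A member counted if any of its windows held the motif, a unit unlike the share of single windows. By that count 26 of the 34 members with an entry held an E-box. A MEF2-like match stood in 3 of the 34 members, Phka1 alone among the 4 promoters shown, and in 3.20% of all windows. An estrogen response element (GGTCA and TGACC with 3 bases of any kind between them, also the same on both strands) was found in none of the 34 members and in 0.064% of all windows. A match describes letters, not a bound site.

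The labels were checked before the comparisons. Bin1 had 549, 521, 533 and 555 CPM (counts relative to library depth, scaled by the TMM method) in the 4 WT mice of its cohort, 62.05, 51.6, 52.2 and 58.7 in untreated and 41.2, 36.04, 49.5 and 36.9 in treated Bin1 mck-/- mice. The groups labelled as deleted lay far below WT, with no overlap. A point mutation leaves no mark in gene counts, so the Dnm2 genotype could not be checked. Muscle-defining transcripts were abundant in every library, with Acta1, the skeletal alpha-actin, at a mean of 23202 CPM in the lowest group, WT mice on tamoxifen.

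Several libraries differ in ways their labels do not state. Xist, the RNA of the inactive X chromosome, was above 10 CPM in 2 of 4 mice of the WT placebo, WT tamoxifen and Dnm2 S619L/+ placebo groups of the dnm2 cohort, in all 4 treated Dnm2 S619L/+ mice and in all 12 mice of the bin1 cohort. Sex is therefore uneven in comparisons with treated Dnm2 S619L/+ mice. Transcripts of 8 bone and cartilage genes summed to 2265, 2607, 1131 and 1270.5 CPM in the WT mice on tamoxifen and to 728, 1608, 1845 and 28.01 CPM in the treated Dnm2 S619L/+ mice. The sum was 2.96, 675, 0.853 and 0.329 CPM in the treated Bin1 mck-/- mice, and at most 4.09 CPM in every mouse on placebo. Ibsp was at 0 in every untreated Bin1 mck-/- mouse and Tnn in every WT mouse of that cohort. Mmp13, a collagenase, was the most abundant of these genes in each tamoxifen group. The bone signal was thus high in all 4 WT mice on tamoxifen, in 3 of 4 treated Dnm2 S619L/+ mice (lowest in replicate 4) and in 1 of 4 treated Bin1 mck-/- mice (replicate 2). Its part in the results was not tested.

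Levels of the 36 genes spanned more than 4 orders of magnitude per kilobase of exon. In untreated WT mice of the bin1 cohort Aldoa, the muscle aldolase, reached 6660.5 CPM per kb, Eno3, muscle enolase, 4449, Pgam2, muscle phosphoglycerate mutase, 2908, Pygm, muscle glycogen phosphorylase, 2451, and Pfkm, muscle phosphofructokinase, 1694. Isoforms of other tissues were far lower, Aldoc at 0.117 CPM per kb, Pfkp at 0.704 and Pfkl at 2.48. Slc2a4 (GLUT4), the insulin-responsive glucose carrier, stood at 208 against 2.08 for Slc2a1 (GLUT1), and Hk2 at 74.7 against 1.61 for Hk1. At each of these steps the muscle isoform had the highest level.

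Gapdh and Pgk1, which every fibre needs, were listed at only 3.95 and 18.9 CPM per kb. Both share much of their sequence with pseudogenes and related genes. Of the 50-base stretches of the longest coding transcript, 82.5% of those of Gapdh also occur in another annotated gene, 72.2% of those of Eno1, 67.96% of Pgk1, 41.5% of Pgam1, 34.4% of Pkm and 27.01% of Ldhb. The coding stretch of Gapdh found in the most other genes, 83 of them, shows how such a read cannot be placed.
Gapdh, bases 655 to 704 of the transcript: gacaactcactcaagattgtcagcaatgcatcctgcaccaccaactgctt
The count table of the bin1 cohort lists reads that map to several places apart from the genes, so the values of these genes stand for the unique part of their sequence and are uncertain.

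**Figure D1:**
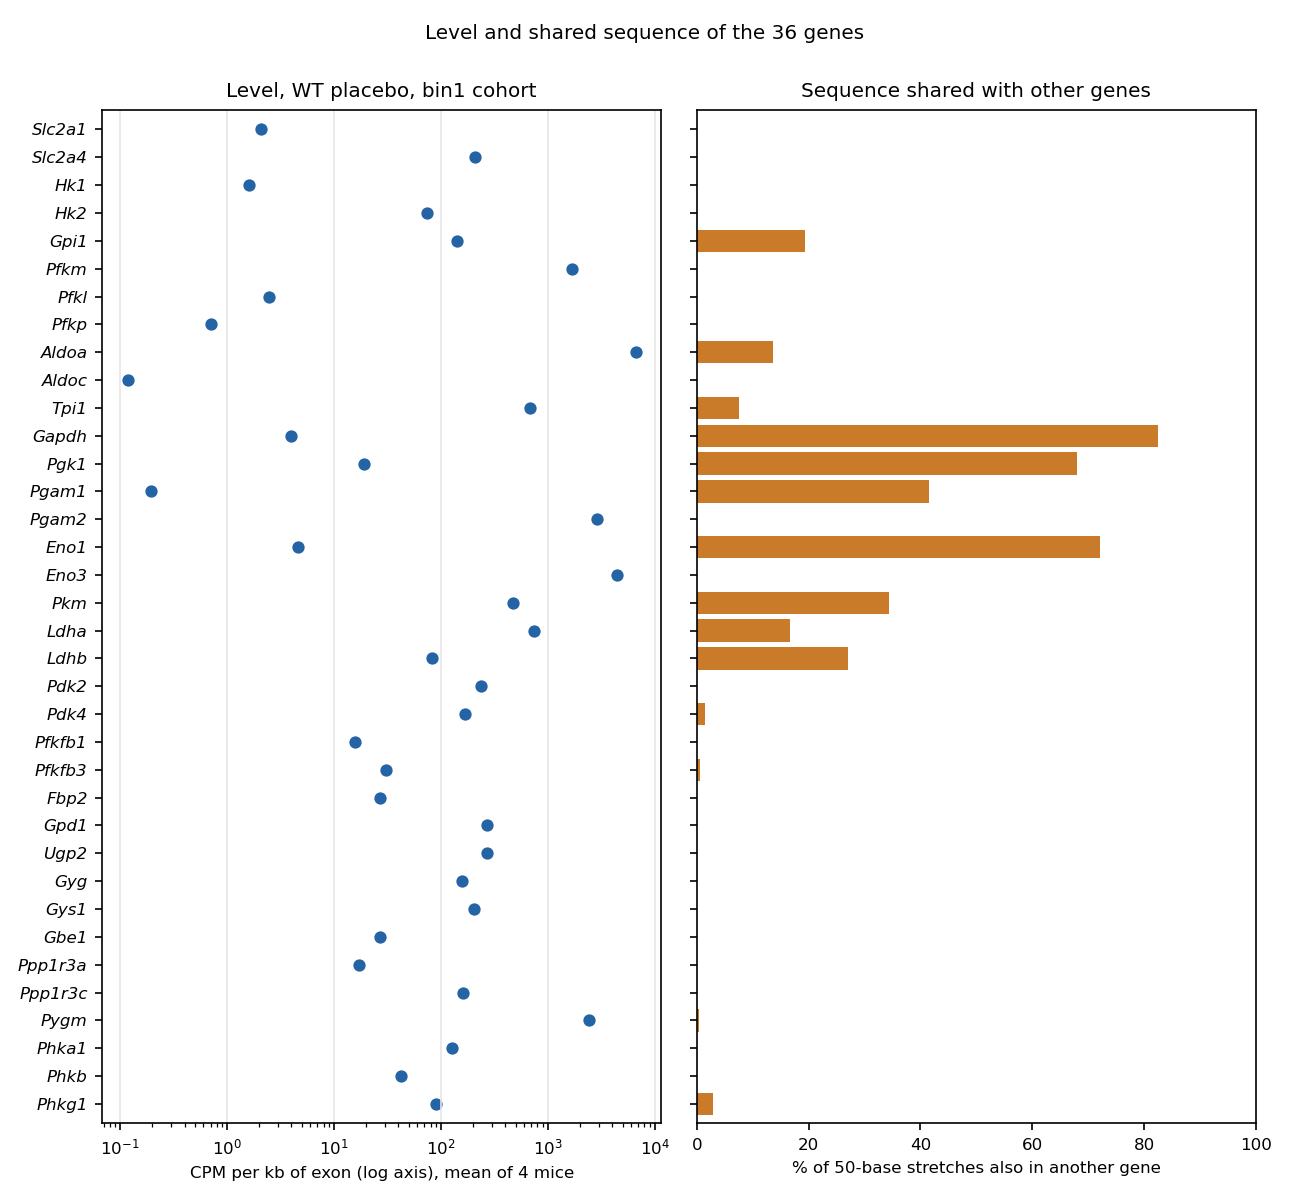
Left, mean level of each gene in the 4 untreated WT mice of the bin1 cohort, in CPM per kb of exon on a log axis. Right, the share in percent of 50-base stretches of the longest coding transcript that also occur in another gene, highest for Gapdh at 82.5%, a gene listed at 3.95 CPM per kb.

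Together the 36 genes took 4.36, 4.399, 4.39 and 4.35% of unscaled gene reads in the 4 WT mice on placebo of the dnm2 cohort and 4.28, 4.18, 4.64 and 3.98% in the untreated Dnm2 S619L/+ mice. The shares were 3.61, 3.82, 4.47 and 4.96% in WT mice on tamoxifen and 3.96, 3.51, 3.68 and 4.42% in treated Dnm2 S619L/+ mice. Before scaling, these 4 groups overlapped. In the bin1 cohort the share was 5.42, 5.95, 5.85 and 5.96% in WT mice, 5.32, 4.97, 5.27 and 4.42% in untreated and 5.58, 5.103, 6.04 and 6.27% in treated Bin1 mck-/- mice. Every untreated Bin1 mck-/- mouse lay below every WT mouse. Aldoa alone made up 25.0% to 36.5% of the members' reads in any mouse.

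**Figure D2:**
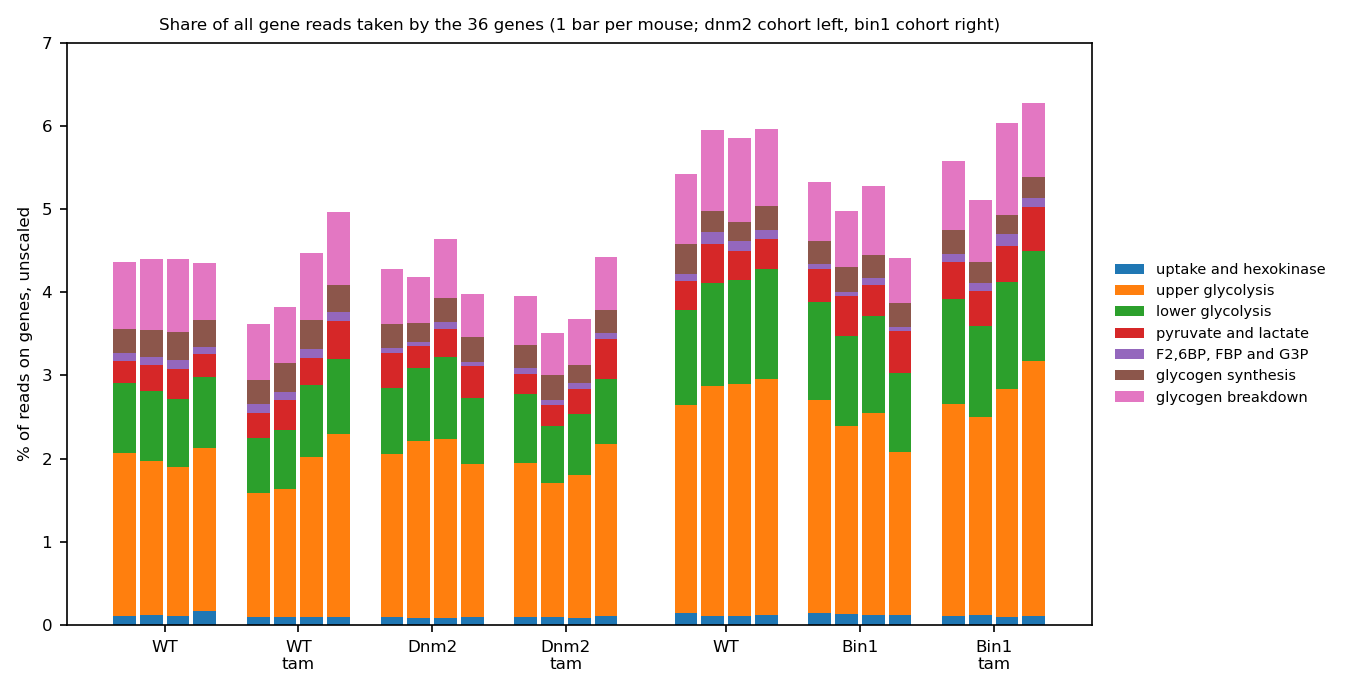
Share of all reads on genes, in percent and unscaled, taken by the 36 genes in each of the 28 mice, 1 bar per mouse, with colours for the 7 steps. Upper glycolysis is the widest band in every mouse, and untreated Bin1 mck-/- mice, with a highest total of 5.32%, lie below their WT mice.

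The first comparison asked what the Dnm2 mutation does without treatment. In Dnm2 S619L/+ muscle 17 of the 36 genes fell and 2 rose against WT (edgeR's quasi-likelihood test with Benjamini-Hochberg adjustment over all genes), where 21.9% of all 15439 genes tested were called, 12.1% higher and 9.81% lower. In 17 members the groups did not overlap, against 24.9% of all genes. The median log2 fold change of the members was -0.36, against 0.02 for all genes. All 4 genes of glycogen breakdown fell, as did 3 of 4 genes in the fructose 2,6-bisphosphate group and 3 of 4 in the pyruvate and lactate group. Of the 14 genes of upper and lower glycolysis only Pfkm and Gapdh fell and Eno1 rose.

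At glycogen breakdown, Phka1, the alpha subunit of phosphorylase kinase, had 792, 1006, 992 and 719.9 CPM in WT and 488, 363, 489 and 362 CPM in Dnm2 S619L/+ mice. The groups did not overlap, and the gene fell by 51.5% (log2 fold change -1.04 ± 0.17 (SE), adjusted p = 0.000852, edgeR). Phkb, the beta subunit, had 352, 477, 482 and 306 CPM against 264, 203, 285 and 222 CPM. All Dnm2 S619L/+ mice lay below all WT mice (log2 fold change -0.73 ± 0.18 (SE), adjusted p = 0.0102, edgeR). Pygm, the phosphorylase itself, had 7222, 8312, 8646 and 6202 CPM in WT and 5060.3, 4772, 5849 and 3784 CPM in the mutants. It fell without overlap (log2 fold change -0.64 ± 0.17 (SE), adjusted p = 0.0141, edgeR), and Phkg1, the catalytic subunit, fell with 1 mutant above the lowest WT mouse (log2 fold change -0.61 ± 0.17 (SE), adjusted p = 0.0172, edgeR).

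Of the 6 glycogen synthesis genes 3 fell. Gys1, muscle glycogen synthase, had 924, 1038, 920.0 and 1028 CPM in WT and 773, 724, 759.7 and 746 CPM in Dnm2 S619L/+ mice. The groups did not overlap (log2 fold change -0.38 ± 0.09 (SE), adjusted p = 0.00822, edgeR). Ugp2, which makes UDP-glucose, and Ppp1r3a, a subunit that brings protein phosphatase 1 to glycogen, fell too, with log2 fold changes of -0.61 and -0.63. Gyg, the glycogenin primer, Gbe1, the branching enzyme, and Ppp1r3c, another targeting subunit, were not called, with log2 fold changes of -0.12, -0.33 and -0.42.

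In the regulatory group, Fbp2, muscle fructose 1,6-bisphosphatase, had 55.6, 54.6, 57.8 and 55.4 CPM in WT and 27.4, 26.2, 30.9 and 23.9 CPM in Dnm2 S619L/+ mice. Each group was tight and the mutants lay far below (log2 fold change -1.04 ± 0.23 (SE), adjusted p = 0.00574, edgeR). Gpd1, the cytosolic glycerol 3-phosphate dehydrogenase, had 749, 913, 957 and 726 CPM against 393, 325, 705 and 277 CPM. Mutant replicate 3 came close to WT, and the groups still did not overlap (log2 fold change -0.98 ± 0.23 (SE), adjusted p = 0.00856, edgeR). Pfkfb1, which makes and degrades fructose 2,6-bisphosphate, fell (log2 fold change -0.87 ± 0.22 (SE), adjusted p = 0.013, edgeR), while its relative Pfkfb3 varied widely and was not called (log2 fold change -0.63).

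At uptake, Hk2, the muscle hexokinase, had 472, 666, 630.2 and 1134 CPM in WT and 396, 316, 314 and 348 CPM in Dnm2 S619L/+ mice. WT replicate 4 was far above the other mice, and the mutants lay below all of WT (log2 fold change -1.08 ± 0.25 (SE), adjusted p = 0.00655, edgeR). Slc2a4 fell by 29.5% (log2 fold change -0.51 ± 0.10 (SE), adjusted p = 0.00288, edgeR). Slc2a1, a carrier low in adult fibres, had 8.69, 5.26, 5.85 and 6.898 CPM in WT and 16.9, 8.298, 11.9 and 10.7 CPM in mutants. It rose with 1 mutant among the WT values (log2 fold change 0.83 ± 0.22 (SE), adjusted p = 0.0165, edgeR), so the carriers moved in opposite directions.

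Among the other steps, Pfkm fell (log2 fold change -0.48 ± 0.14 (SE), adjusted p = 0.0223, edgeR), and so did Pdk2, a kinase that switches off pyruvate dehydrogenase (log2 fold change -0.48), Ldha (log2 fold change -0.34, just inside the threshold) and Ldhb, the heart-type lactate dehydrogenase (log2 fold change -0.57). With 1 mouse left out, the call of Ldha held in 4 of 16 fits, that of Ldhb in 8 and that of Gapdh in 11. Under 13 other alternatives these calls held in 8, 8 and 9. A term for replicate number (the replicate block) was among those that lost Ldha. Eno1 rose (log2 fold change 0.51) and Gapdh fell (log2 fold change -0.60), both with the shared sequence described above. The abundant enzymes Aldoa, Eno3, Pgam2, Tpi1 and Pkm were not called, with log2 fold changes between -0.30 and -0.05. The remaining members were not called either, Gpi1 (phosphoglucose isomerase) at -0.19, Hk1 at 0.40, Pfkl at 0.18, Pfkp at 0.09, Aldoc at 0.82, Pgk1 at 0.79, Pgam1 at -0.24 and Pdk4 at 0.66 on the log2 scale.

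**Figure D3:**
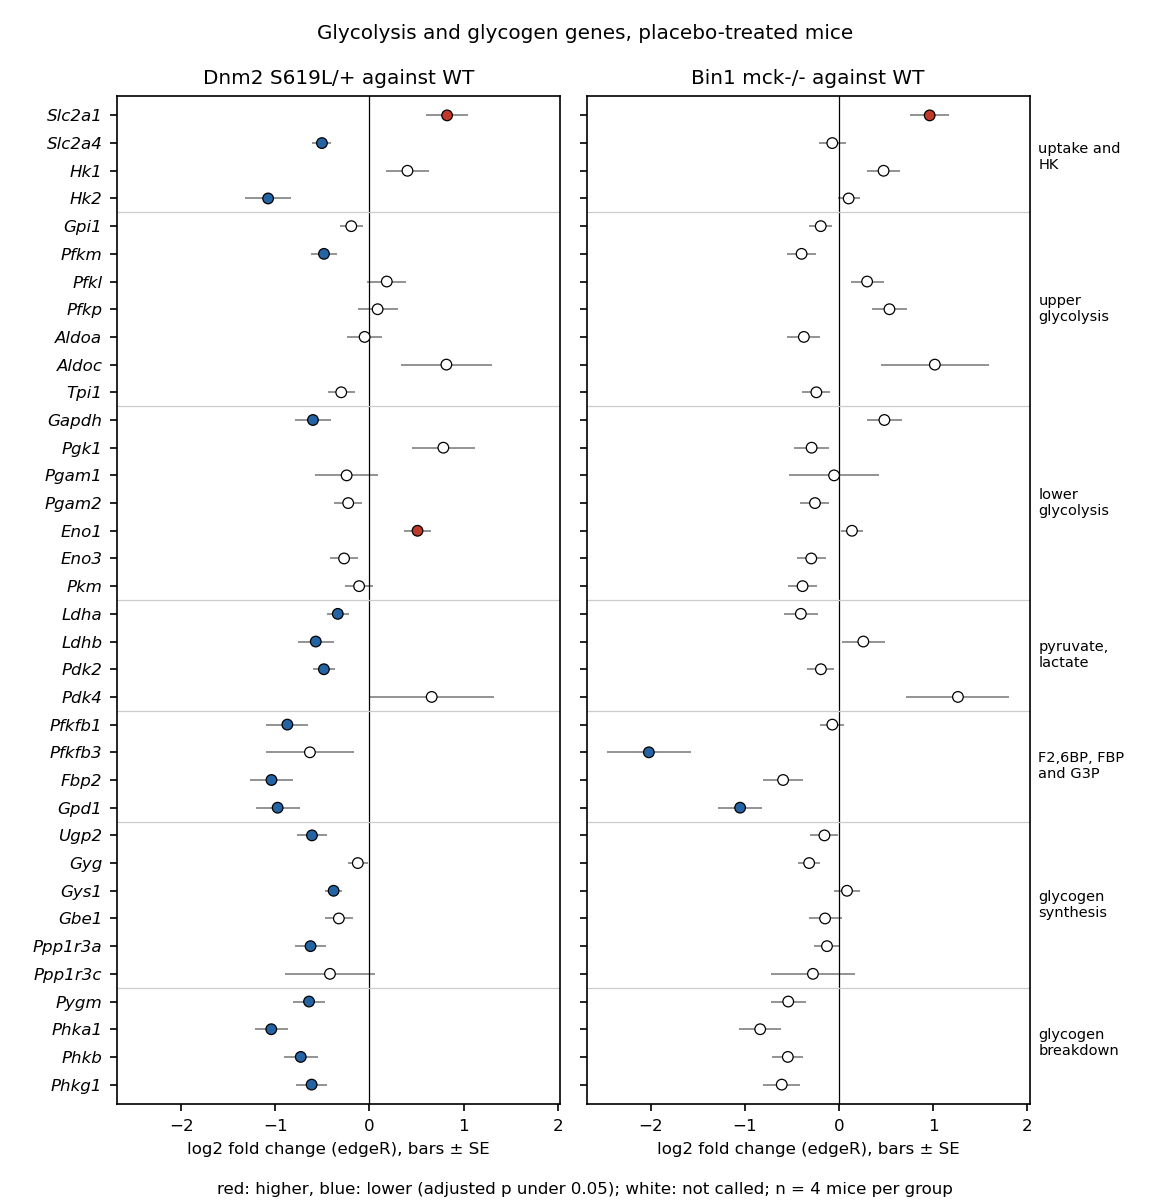
Log2 fold change ± SE of the 36 genes in untreated mutants against untreated WT mice, Dnm2 S619L/+ left and Bin1 mck-/- right, 4 mice per group. Called genes are filled, 17 blue and 2 red on the left and 2 blue and 1 red on the right, and the 4 glycogen breakdown genes at the bottom lie left of 0 in both panels.

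These calls depend on how the libraries were scaled. TMM factors were 0.8997, 0.821, 0.812 and 0.888 in WT mice on placebo and 1.06, 0.969, 0.993 and 1.11 in Dnm2 S619L/+ mice, and mitochondrial transcripts took 19.6, 23.6, 25.7 and 22.9% and 13.6, 13.97, 17.1 and 14.9% of reads. With library size alone the median of all genes moved to 0.28 and that of the members to -0.08, and 3 members rose and 10 fell, where 4806 of all genes were higher and 470 lower (34.2%) instead of 1868 and 1515. Scaled on 10 skeletal muscle markers (Acta1, Ckm, Ttn, Des, Myh4, Myh1, Mb, Tnnt3, Casq1 and Ryr1, of which Myh4, Myh1 and Tnnt3 are also fast-fibre markers), 3 members rose and 6 fell, where 2388 of all genes were higher and 310 lower (17.5%). Of these 10, Des rose and Myh4 fell in this comparison. Under that scaling Phka1 was at -0.82 (adjusted p = 0.0013), Fbp2 at -0.83 (adjusted p = 0.0045), Phkg1 at -0.40 (adjusted p = 0.0681) and Gys1 at -0.17 (adjusted p = 0.404) on the log2 scale, by edgeR, so the direction held and the calls of Phkg1 and Gys1 did not. The calls of Slc2a4, Pdk2, Pfkfb1, Pfkm, Ugp2, Ppp1r3a, Ldha, Ldhb and Gapdh were lost under it as well. Without WT replicate 2, or without WT replicate 3, 11 members were called in place of 19, with 13.0% and 14.6% of all genes called, and with only the mice that express Xist (2 against 2) 1 was, with 6.98% of all genes. Of the 19 calls 8 survived each single omission of a mouse, and 1, Gpd1, survived all alternatives. In bulk muscle, fewer cells of a type and less RNA per cell cannot be told apart. Of 10 slow-fibre markers, 6 rose and 1 fell in Dnm2 S619L/+ mice, but their sum was 355, 216, 199 and 330.2 CPM in WT and 420.5, 532, 168 and 366 CPM in mutants, with Casq2 the most abundant. Of 10 fast-fibre markers, Myh4 and Myh2 fell. Their sum, led by Myh4 in WT, was 151240, 155270, 157350 and 123710 CPM in WT and 110440, 134570, 123050 and 93870 CPM in mutants. Of 5 endothelial markers, led by Cdh5, 4 fell, with a sum of 552, 423, 350.1 and 671 CPM in WT and 229, 179, 433 and 160.5 CPM in mutants. Of 7 tendon and fibroblast markers Tnmd and Scx rose, with a median log2 fold change of 1.13 over the 7. Their sum was 635, 526, 518 and 851 CPM in WT, led by Dcn, and 1465, 1320.2, 1118 and 917 CPM in mutants, led by Col1a1, without overlap. Of 7 leukocyte markers, 4 rose. Their sum, led by Cd74, was 125, 116, 71.6 and 111 CPM in WT and 263, 224, 120.2 and 787 CPM in mutants. The part of these cells in the result was not tested.

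Of 54 other genes of the same pathways, 45 were tested in this cohort, and 2 rose and 12 fell. Epm2a (laforin, a glycogen phosphatase) fell (log2 fold change -0.40 ± 0.10 (SE), adjusted p = 0.0138, edgeR). Gpd2, the mitochondrial partner of Gpd1, fell by 54.3%, and Tigar, a fructose 2,6-bisphosphatase, by 47.2%. Pdha1 and Pdhx of the pyruvate dehydrogenase complex and Pdpr, a regulator of its phosphatase, fell, while its kinase Pdk3 rose from a low level (mean 1.702 to 4.86 CPM). Also called were lower Bpgm (bisphosphoglycerate mutase) and Pgm2l1 (glucose 1,6-bisphosphate synthase) and higher Ldhd.

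The second comparison asked what tamoxifen does in WT muscle. Here 11 members fell and 1 rose, where 27.7% of all genes were called, 15.8% higher and 11.9% lower. In 14 members the groups did not overlap, against 31.4% of all genes. The median of the members was -0.35 against -0.04 for all genes. The WT mice on placebo are the same 4 as in the first comparison. Ldhb had 54.6, 47.4, 55.8 and 35.8 CPM on tamoxifen against 109, 66.8, 87.3 and 109 CPM on placebo. The groups did not overlap (log2 fold change -0.94 ± 0.19 (SE), adjusted p = 0.00234, edgeR). Hk2 had 377, 382, 350.4 and 383 CPM on tamoxifen, below all 4 mice on placebo (log2 fold change -0.96 ± 0.24 (SE), adjusted p = 0.00948, edgeR).

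Of the 6 glycogen synthesis genes 3 fell in WT mice on tamoxifen. Gys1 had 685, 628, 699 and 682 CPM, below every mouse on placebo (log2 fold change -0.54 ± 0.09 (SE), adjusted p = 0.000799, edgeR), and Ugp2 and Gyg had log2 fold changes of -0.73 and -0.42. None of the 4 breakdown genes was called, with log2 fold changes from -0.44 to -0.37 and adjusted p from 0.0721 to 0.109 in edgeR. Slc2a4, Pfkm, Gapdh, Pgam2, Ldha and Pdk2 fell, by 23.0% to 36.8%. The calls of Gapdh (with its shared sequence), Ldha and Pfkm held in 11, 12 and 13 of 16 fits that left out a mouse. Hk1, the hexokinase of most other tissues, was the single member that rose (log2 fold change 0.63 ± 0.22 (SE), adjusted p = 0.0471, edgeR), a call that held in 5 of 16 fits that left out a mouse and in 11 of 13 other alternatives. Of the 12 calls 8 survived each single omission of a mouse, and none survived all alternatives. With only the mice that express Xist (2 against 2) 5 members were called, with 13.8% of all genes. Fbp2 had 69.9, 71.4, 71.7 and 112 CPM, above every mouse on placebo, and was not called (log2 fold change 0.54 ± 0.23 (SE), adjusted p = 0.0889, edgeR).

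These calls too depend on scaling. With library size alone 3 members rose and 5 fell, where 4409 of all genes were higher and 383 lower (31%). With muscle-marker scaling 3 members rose and none fell, where 5230 of all genes were higher and 103 lower (34.5%) and the median of all genes moved to 0.39. Under muscle-marker scaling the values of Ldha and Gyg turned to 0.06 and 0.01 on the log2 scale, and Ldhb was -0.52 (adjusted p = 0.11), by edgeR. The breakdown genes, not called in any of these fits, turned to between 0.00 and 0.07. Fbp2 was called under library size alone, at 0.82 (adjusted p = 0.00563), and under muscle-marker scaling, at 0.98 (adjusted p = 0.00109), by edgeR. Mitochondrial transcripts took 18.98, 17.7, 17.6 and 16.5% of reads on tamoxifen, below every mouse on placebo. Of 10 fast-fibre markers Tnnc2 and Myh2 fell, and the median log2 fold change of the 10 was -0.42. Their sum, led by Atp2a1, was 104800, 102440, 114610 and 113570 CPM on tamoxifen, below every mouse on placebo, and its part was not tested. All 8 bone and cartilage markers and all 7 tendon and fibroblast markers rose beside these genes. The tendon and fibroblast sum was 635, 526, 518 and 851 CPM on placebo and 6798, 10082, 5044 and 7376 CPM on tamoxifen, with Col1a1 the most abundant on tamoxifen, and its part was not tested. Of 7 leukocyte markers 5 rose, with sums, led by Lyz2, of 280.2, 355, 204 and 194 CPM on tamoxifen. Of 7 erythroid markers 2 rose, with a median log2 fold change of 1.07 over the 7. Their sum, led by Hbb-bs, was 555, 367, 1306 and 1573 CPM on placebo and 871, 2127, 2767 and 1338 CPM on tamoxifen, and the part of these cells was not tested. Of the other genes of the pathways 4 rose and 13 fell. Those that fell included Pdha1, Pdhb, Dlat and Pdhx of the pyruvate dehydrogenase complex and Mpc1 and Mpc2, the mitochondrial pyruvate carrier, with log2 fold changes from -0.72 to -0.44. Also lower were Ldhd, Pdk1, Pdp1, Pfkfb2, Epm2a, Nhlrc1 and Tigar, and the 4 that rose were Eno2, Pygb, Pdk3 and G6pdx.

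In Dnm2 S619L/+ muscle tamoxifen changed 1 member, where 8.26% of all genes were called, 5.22% higher and 3.04% lower. In no member were the groups apart, against 10.4% of all genes. Fbp2 had 46.6, 30.2, 41.9 and 80.7 CPM on tamoxifen against 27.4, 26.2, 30.9 and 23.9 CPM on placebo. It rose with the lowest treated mouse inside the placebo range (log2 fold change 0.88 ± 0.23 (SE), adjusted p = 0.0312, edgeR). The call was lost without Dnm2 S619L/+ placebo replicate 1, 2 or 4 or treated replicate 1 or 3, whereas leaving out treated replicate 4, the mouse with little bone signal, gave 4 called members and 16.4% of all genes. The median of the members was -0.17 against -0.03 for all genes, and the 4 breakdown genes had log2 fold changes between -0.37 and -0.15. Of the bone and cartilage markers 7 of 8 rose here, and of the tendon and fibroblast markers 2 of 7, whose sum, led by Col1a1, was 1465, 1320.2, 1118 and 917 CPM on placebo and 3816, 6367, 8096 and 872 CPM on tamoxifen. Their part was not tested. Ldhd, a D-lactate dehydrogenase, was the single other gene of the pathways called (log2 fold change -0.89 ± 0.10 (SE), adjusted p = 0.000547, edgeR).

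Treated Dnm2 S619L/+ mice were also set against WT mice on placebo, another comparison that uses those 4 mice. Here 20 members fell and 2 rose, where 28.9% of all genes were called, 15.8% higher and 13.1% lower. In 18 members the groups did not overlap, against 26.1% of all genes, and the median was -0.49 against 0.01 for all genes. Phka1 had 319, 282, 286 and 430.1 CPM, all below WT, a fall of 62.5% (log2 fold change -1.41 ± 0.18 (SE), adjusted p = 0.000158, edgeR). Pygm had 4492, 3589, 4064 and 5439 CPM, also below all of WT (log2 fold change -0.79 ± 0.17 (SE), adjusted p = 0.00328, edgeR), and Phkb and Phkg1 fell by 46.2% and 42.4%. Pfkfb1 had 33.1, 42.4, 30.2 and 42.6 CPM against 69.9, 102, 128 and 60.4 CPM in WT (log2 fold change -1.28 ± 0.23 (SE), adjusted p = 0.00108, edgeR). Fbp2 was at -0.16 on the log2 scale and was not called (adjusted p = 0.62, edgeR).

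The remaining falls in treated Dnm2 S619L/+ mice were in Slc2a4, Hk2, Gpi1, Pfkm, Tpi1, Pgam2, Eno3, Ldha, Ldhb, Pdk2, Gpd1, Ugp2, Gyg, Gys1 and Ppp1r3a, from 18.96% for Gyg to 53.4% for Hk2. Hk1 and Eno1 rose by 82.8% and 31.6%, and the call of Eno1, with its shared sequence, held in 7 of 16 fits that left out a mouse against 16 for Hk1. The call of Gyg held in 4 of those 16 fits and in 5 of 13 other alternatives, and was lost with the replicate block and with sex as a term. With library size alone 3 members rose and 10 fell, where 6119 of all genes were higher and 445 lower (42.5%), and Gyg turned to 0.04. With muscle-marker scaling 3 members rose and 8 fell, where 5065 of all genes were higher and 256 lower (34.5%), and Gyg turned to 0.06. Phka1 and Pfkfb1 passed the threshold in all 16 fits that left out a mouse and in all 13 other alternatives, the 2 of the 22 calls that did. With only the mice that express Xist, 4 treated against 2 WT, 5 members were called, with 6.82% of all genes. Of the 10 skeletal muscle markers 5 fell here, Myh4, Ttn, Tnnt3, Casq1 and Ryr1. Among the other genes of the pathways 5 rose and 13 fell, among them Gpd2 at -1.07 and Tigar at -1.24 on the log2 scale. Of the 10 slow-fibre markers 3 rose and 0 fell, with a median log2 fold change of 0.97. The slow-fibre sum was 406, 374, 303 and 389 CPM against 355, 216, 199 and 330.2 CPM in WT, overlapping. Of the 10 fast-fibre markers 7 fell in this comparison, among them Myh4 and Actn3, and their sum, led by Atp2a1, was 94294, 77136, 92700 and 127850 CPM. Bone markers (7 of 8), tendon and fibroblast markers (6 of 7) and leukocyte markers (5 of 7, with sums, led by Lyz2, of 256, 328, 286 and 112 CPM) rose beside them. Their part was not tested.

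Whether tamoxifen acts differently in WT and Dnm2 S619L/+ mice was tested as an interaction. No member was called, where 0.259% of all genes were (0.0324% higher and 0.227% lower), although DESeq2 called 2, and 2.12% of all genes. Hk2 differed by 0.94 ± 0.34 on the log2 scale (adjusted p = 0.273, edgeR), Gapdh by 0.84 ± 0.27 and Gys1 by 0.44 ± 0.13. The falls called in WT and not in Dnm2 S619L/+ mice are thus not shown to differ between the genotypes.

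**Figure D4:**
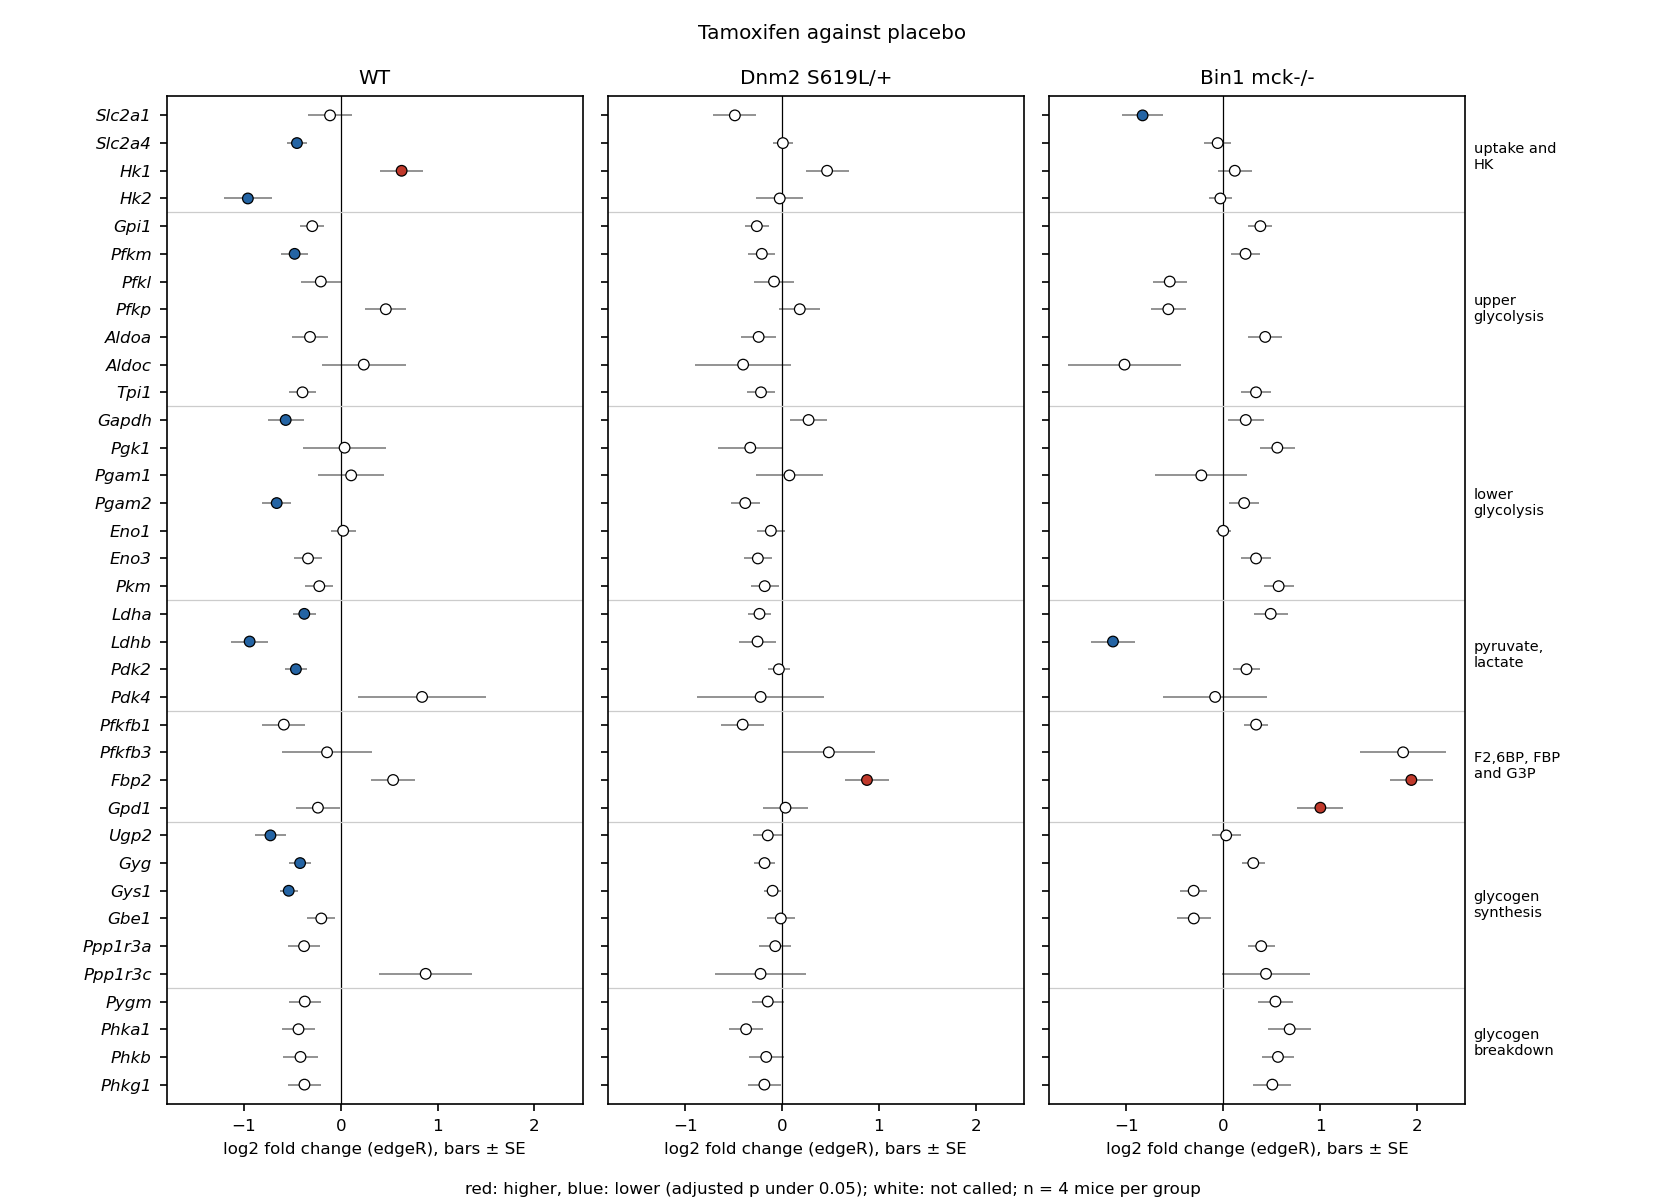
Log2 fold change ± SE of the 36 genes on tamoxifen against placebo in WT, Dnm2 S619L/+ and Bin1 mck-/- mice, 4 mice per group. Called genes are filled, 11 blue and 1 red in WT, 1 red in Dnm2 S619L/+ and 2 blue and 2 red in Bin1 mck-/-, where Fbp2 lies farthest right.

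Loss of Bin1 was the question of the second cohort. In edgeR 3 members were called in untreated Bin1 mck-/- mice, where 2.61% of all 14841 genes tested were, 1.99% higher and 0.627% lower. Slc2a1 rose, and Pfkfb3 and Gpd1 fell. The median of the members was -0.19 against 0.01 for all genes. In 12 members the groups did not overlap, against 16.5% of all genes.

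Pfkfb3, a kinase of fructose 6-phosphate induced by low oxygen and growth signals in many cells, had 135, 365, 185 and 251 CPM in WT and 77.96, 35.96, 88.3 and 28.002 CPM in Bin1 mck-/- mice. The groups did not overlap although WT mice spread widely (log2 fold change -2.02 ± 0.45 (SE), adjusted p = 0.0456, edgeR). Gpd1 had 597, 1016, 860.0 and 752 CPM in WT and 465, 318, 525 and 247 CPM in Bin1 mck-/- mice. It fell by 51.8% (log2 fold change -1.05 ± 0.24 (SE), adjusted p = 0.035, edgeR). Slc2a1 had 7.15, 5.22, 8.86 and 7.89 CPM in WT and 18.9, 14.7, 11.4 and 12.1 CPM in Bin1 mck-/- mice, again without overlap (log2 fold change 0.96 ± 0.21 (SE), adjusted p = 0.0294, edgeR).

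The glycogen breakdown genes were not called in Bin1 mck-/- mice. Phka1 had 803, 822, 798 and 727 CPM in WT and 442, 424, 573 and 323 CPM in Bin1 mck-/- mice. All mutants were lower, and the value missed the threshold (log2 fold change -0.84 ± 0.22 (SE), adjusted p = 0.0588, edgeR). Pygm, Phkb and Phkg1 had log2 fold changes of -0.54, -0.54 and -0.61, with adjusted p of 0.119, 0.0831 and 0.104 in edgeR. Pdk4, a kinase raised by fasting, had 429.7, 1362, 308 and 268 CPM in WT and 936, 1773, 708 and 2270.4 CPM in Bin1 mck-/- mice, overlapping, and was not called (log2 fold change 1.26). The glycolytic enzymes Aldoa, Pfkm, Eno3, Pgam2, Pkm and Ldha had log2 fold changes from -0.41 to -0.26, none called.

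None of the 3 calls held in every fit that left out 1 mouse. No member was called without Bin1 mck-/- placebo replicate 1, 2 or 4 or WT replicate 6, 7 or 8, fits that called 0.119% to 0.694% of all genes, and 1 was without WT replicate 5 (1.37% of all genes). By contrast 5 members were called without treated replicate 2 or 3 (4.5% to 5.03% of all genes) and 6 without placebo replicate 3. DESeq2 called 7 members and 8.03% of all genes, and the fit without placebo replicate 3 called 4.81% of all genes. Of 7 leukocyte markers 4 rose in Bin1 mck-/- mice, their sum, led by Cd74, being 112, 109.8, 139.8 and 82.7 CPM in WT and 291, 323, 213 and 461 CPM in Bin1 mck-/- mice, and of 10 fast-fibre markers Actn3 and Pvalb fell. Of 7 adipocyte markers Plin1, Cidec and Cfd rose, the list's sum, led by Fabp4, being 248, 245, 258 and 273 CPM in WT and 293, 237, 280.2 and 402 CPM in Bin1 mck-/- mice. The fast-fibre sum was 127980, 159470, 153520 and 144920 CPM in WT and 123690, 105140, 116470 and 86861 CPM in mutants, without overlap. The tendon and fibroblast sum was 643, 697, 457 and 568 CPM in WT and 873, 1074, 769 and 2102 CPM in mutants, without overlap. No tendon and fibroblast or erythroid marker was called, with median log2 fold changes of 1.19 and 1.37. Their part was not tested. With muscle-marker scaling the median of all genes moved to 0.25 and that of the members to 0.04. Under it Phka1 stood at -0.61 (adjusted p = 0.0579), by edgeR, and the calls of Slc2a1, Pfkfb3 and Gpd1 held. Among 45 other genes of the pathways tested, Pdk3 rose (log2 fold change 1.59 ± 0.34 (SE), adjusted p = 0.0289, edgeR) and Epm2a fell (log2 fold change -0.55 ± 0.13 (SE), adjusted p = 0.0395, edgeR).

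Tamoxifen in Bin1 mck-/- mice raised Fbp2 and Gpd1 and lowered Slc2a1 and Ldhb, 4 members where 3.13% of all genes were called, 1.52% higher and 1.61% lower. In 7 members the groups did not overlap, against 9.8% of all genes. The median of the members was 0.28 against -0.0007 for all genes. The untreated Bin1 mck-/- mice are the same 4 as in the comparison with WT.

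Fbp2 had 36.1, 46.4, 37.1 and 37.1 CPM in WT, 30.6, 26.1, 28.8 and 18.2 CPM in untreated and 77.002, 69.1, 137 and 117 CPM in treated Bin1 mck-/- mice. Every treated mouse lay above every WT and every untreated mouse. The rise over placebo was 3.84-fold (log2 fold change 1.94 ± 0.22 (SE), adjusted p = 0.0007, edgeR) and passed the threshold in all 12 fits that left out a mouse and in all 11 other alternatives. Against WT, Fbp2 was the single member called, where 0.849% of all genes were, 0.465% higher and 0.384% lower (log2 fold change 1.35 ± 0.21 (SE), adjusted p = 0.011, edgeR). In 4 members the groups did not overlap, against 7.96% of all genes. That call was lost without WT replicate 5 (adjusted p = 0.0559, edgeR) or WT replicate 8.

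Gpd1 had 754, 602, 1015 and 748 CPM in treated Bin1 mck-/- mice, above all untreated mice (log2 fold change 1.003 ± 0.24 (SE), adjusted p = 0.0357, edgeR). Against WT its log2 fold change was -0.05 (adjusted p = 0.947, edgeR). Slc2a1 had 7.27, 10.1, 5.78 and 8.77 CPM, below all untreated mice (log2 fold change -0.83 ± 0.21 (SE), adjusted p = 0.0435, edgeR), and stood at 0.13 against WT. Pfkfb3 had 164, 135, 293 and 243 CPM, all above the untreated mice, and just missed the threshold (log2 fold change 1.86 ± 0.45 (SE), adjusted p = 0.0528, edgeR).

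Ldhb behaved otherwise. It had 156, 117, 109 and 137 CPM in WT, 136, 174, 183 and 128 CPM in untreated and 86.1, 92.1, 38.9 and 64.9 CPM in treated Bin1 mck-/- mice. Treated mice lay below both other groups (log2 fold change -1.14 ± 0.23 (SE), adjusted p = 0.0207, edgeR), and against WT the log2 fold change of -0.88 was not called (adjusted p = 0.0999, edgeR). The D-lactate dehydrogenase Ldhd fell on tamoxifen in this cohort too (log2 fold change -0.87 ± 0.09 (SE), adjusted p = 0.000273, edgeR), to 34.2% below WT (log2 fold change -0.60 ± 0.09 (SE), adjusted p = 0.00513, edgeR). Ldhd was the single gene of the wider pathway called against WT.

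The glycogen breakdown genes had positive log2 fold changes on tamoxifen, none called. Phka1 was at 605, 455, 1083 and 692 CPM in treated mice and overlapped the untreated group (log2 fold change 0.69 ± 0.22 (SE), adjusted p = 0.102, edgeR), and Pygm at 7525, 5723, 9973 and 8317 CPM (log2 fold change 0.54 ± 0.19 (SE), adjusted p = 0.116, edgeR). With muscle-marker scaling they ran from 0.23 to 0.39, still not called, while the median of all genes moved to -0.25. In all 4, treated replicate 2, the mouse with bone transcripts, was the lowest treated mouse. Without it 14 members were called in place of 4, while the share of all genes called went from 3.13% to 8.30%. Only 1 was called without untreated replicate 2 or treated replicate 4 (1.31% to 1.66% of all genes), and 2 without untreated replicate 1 or 4, treated replicate 3 or WT replicate 7 or 8 (1.05% to 2.33% of all genes). Of the 4 calls, that of Slc2a1 held in 3 of 12 fits that left out a mouse, that of Gpd1 in 5 and that of Ldhb in 10. Fitting only the groups compared lost all 3, and the replicate block lost Slc2a1 and Ldhb. DESeq2 called 11 members and 8.19% of all genes. Among other genes of the pathways Bpgm, which makes 2,3-bisphosphoglycerate, and Pfkfb4, a relative of Pfkfb3, rose, with log2 fold changes of 0.60 and 0.57. Of the fast-fibre markers Actn3 and Pvalb rose. The sum of the 10 was 123690, 105140, 116470 and 86861 CPM in untreated and 137590, 109580, 183290 and 177650 CPM in treated mice, led by Atp2a1. Of 5 Schwann cell and nerve markers 2 fell, and the sum, led by Pmp22, was 104, 70.2, 116 and 113 CPM in untreated and 52.1, 47.6, 40.3 and 45.1 CPM in treated mice, without overlap. Of 7 adipocyte markers Plin1 fell, and the sum, led by Fabp4, was 285, 319, 247 and 248 CPM in treated mice. No erythroid or leukocyte marker was called. All 7 of each list had negative values, with median log2 fold changes of -1.29 and -0.75. Their part was not tested.

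**Figure D5:**
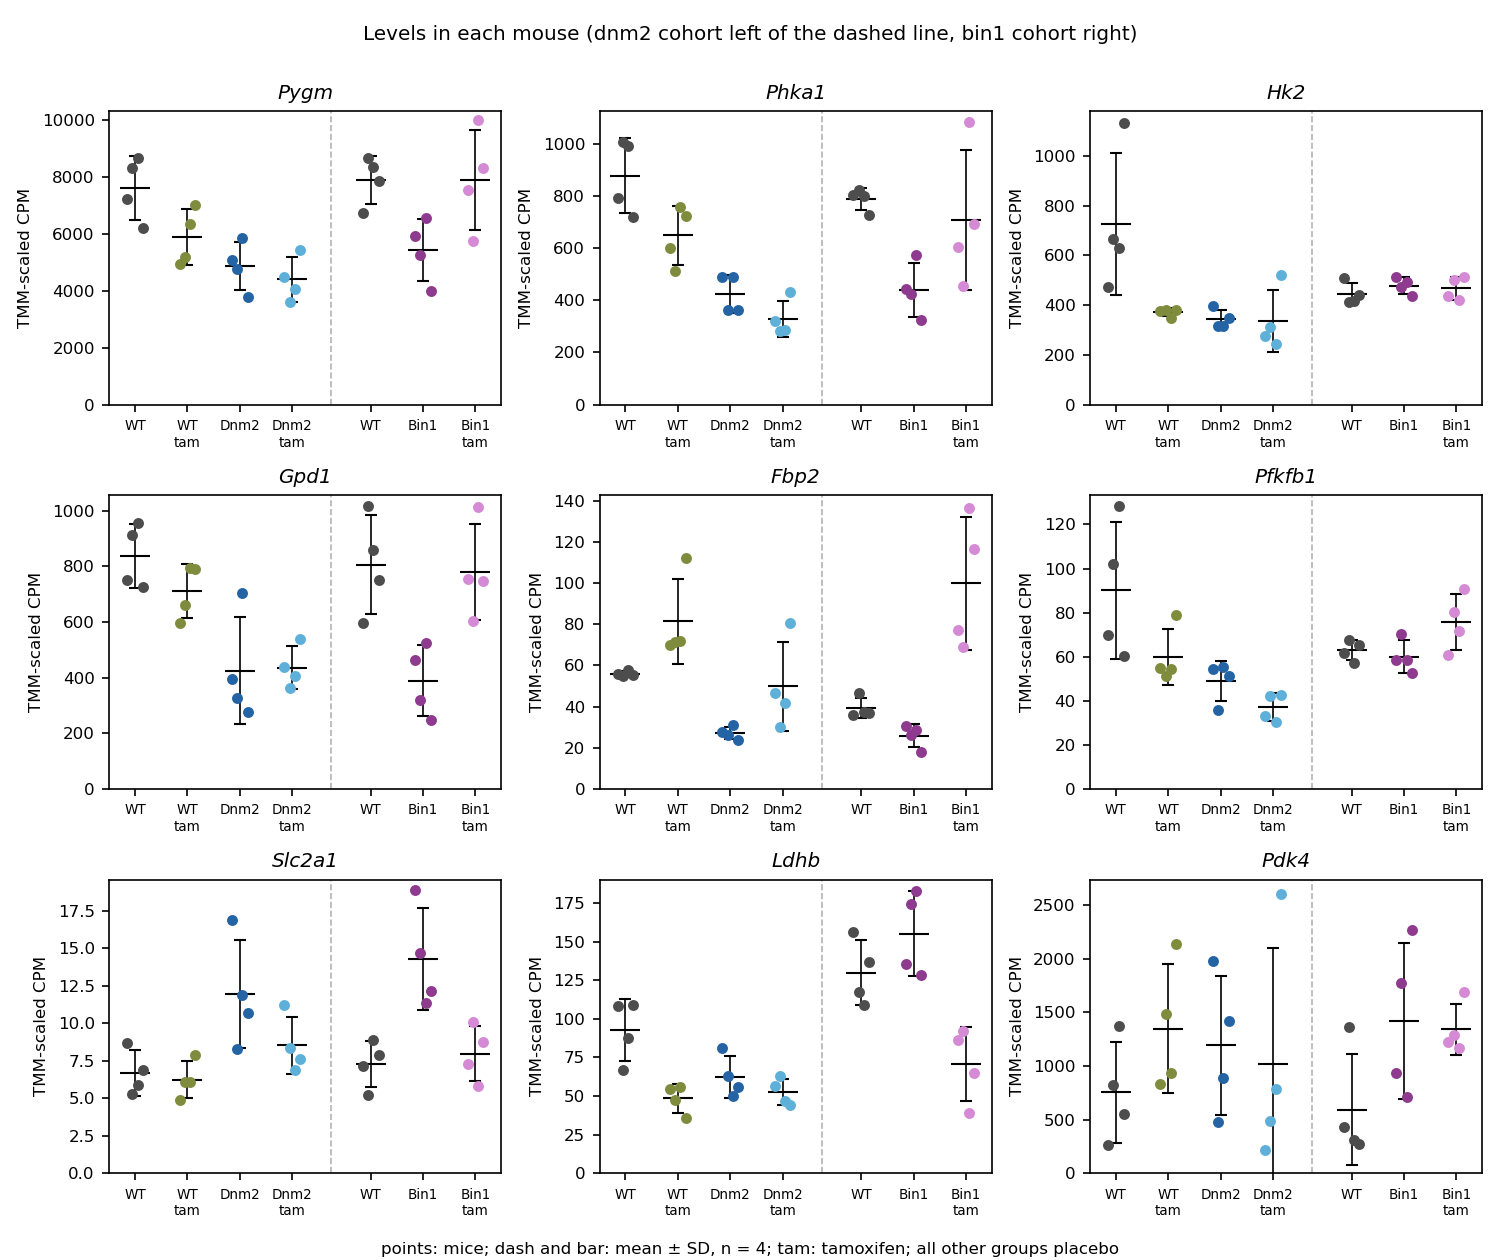
TMM-scaled CPM of 9 genes in each mouse, 7 groups, dnm2 cohort left and bin1 cohort right of the dashed line. Points are mice, and the dash and bar are mean ± SD of 4 mice, with bars cut off at 0. All 4 treated Bin1 mck-/- mice sit at or above 69.1 CPM for Fbp2, where the highest untreated Bin1 mck-/- mouse has 30.6.

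The 2 cohorts differ in library preparation, with other amounts of RNA and fragmentation times, so levels were not compared between them, only differences. The effect of the mutation differed between Dnm2 S619L/+ and Bin1 mck-/- mice for 0 members in edgeR, where 0.312% of all genes were called (0.143% higher and 0.168% lower), and for 2 in DESeq2, which called 1.4%. It differed for 1 member without WT replicate 1 or treated replicate 4 of the dnm2 cohort or untreated Bin1 mck-/- replicate 3 (0.129% to 0.324% of all genes). The largest differences were Pfkfb3 (1.39 ± 0.69 log2 units, adjusted p = 0.384, edgeR) and Hk2 (log2 fold change -1.19 ± 0.28 (SE), adjusted p = 0.063, edgeR). For the glycogen breakdown genes the differences ran from -0.21 to -0.01, with SE of 0.25 to 0.29. The effect of tamoxifen differed for 0 members in edgeR, where 1.71% of all genes were called (1.05% higher and 0.655% lower), and for 7 in DESeq2, which called 7.91%. Without treated Bin1 mck-/- replicate 2, 14 members and 13.5% of all genes differed, without treated Dnm2 S619L/+ replicate 4, 12 members and 11.2% of all genes did, and without untreated Bin1 mck-/- replicate 3, 1 member and 1.7% of all genes did. Fbp2 differed by -1.04 ± 0.33 log2 units (adjusted p = 0.0723, edgeR) and Phka1 by -1.03 (adjusted p = 0.0574, edgeR), neither called. The effect in WT could not be compared with that in Bin1 mck-/- mice within a cohort.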

How the data were processed

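Per the submitters' processing notes, reads were handled with bcl2fastq 2.20.0.422, cutadapt 1.10, Bowtie 1.2.2, STAR 2.5.3 and HTSeq 0.6.1p1 on mm39, from stranded TruSeq poly(A) libraries. The authors deposited raw counts per Ensembl gene, 1 table per cohort. The 4 lines of the bin1 table that name no gene were left out of library sizes. In that cohort reads off genes made up 22.0% to 30.8%. Symbols came from GENCODE M21 (52083 identifiers named in each table). Aldoa names 2 identifiers, and the one with more counts was used.

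Each cohort was fitted apart with edgeR 4.0.16 in R 4.3.3 (TMM, filterByExpr, robust quasi-likelihood test, prior count 2, Benjamini-Hochberg threshold 0.05). The SE beside a log2 fold change is its absolute value divided by the square root of the test's F statistic, not an error estimated by the fit. A joint fit of 28 mice gave the differences between cohorts. The study's methods scale counts with DESeq2, used here (1.42.0) as an alternative. Sex was read from Xist at 10 CPM. Per-kb values divide by the union of exons. Both tools were tested on simulated data.

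The members, gene lists and tests were chosen with earlier results of these data known. All 36 members are reported. Of the other pathway genes called, all are counted and only some are named, and some are not reported here. No label says that replicates share a litter or day. Alternatives were library size, RLE, muscle-marker scaling, filters, mitochondrial, member or bone genes left out of scaling, fewer groups, sex, the replicate block and leaving out each mouse.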

Additional observations from a re-analysis of the deposited data

Results flagged for a closer look

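Of 252 checks of a gene in a group of 4 mice, 13 found 1 mouse far from the other 3, and chance gives about 1 in 20. In WT mice on tamoxifen there were 3. Hk2 in replicate 3 was low at 350.4 CPM, with the other 3 between 377 and 383 CPM. Replicate 4 was high for both Pfkfb1, at 79.1 CPM, with the other 3 between 51.3 and 54.9 CPM, and Fbp2, at 112 CPM, with the other 3 between 69.9 and 71.7 CPM.

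In untreated Dnm2 S619L/+ mice, Pgk1 in replicate 3 was high at 31.9 CPM, with the other 3 between 24.8 and 25.3 CPM. Pgam1 in replicate 1 was low at 0.541 CPM, with the other 3 between 1.03 and 1.13 CPM. Pfkfb1 in replicate 2 was low at 35.8 CPM, with the other 3 between 51.3 and 55.1 CPM. In treated Dnm2 S619L/+ mice, Pfkm in replicate 4, the mouse with little bone signal, was high at 3972 CPM, with the other 3 between 2870.0 and 3029.9 CPM, and Pgam1 in replicate 1 was low at 0.613 CPM, with the other 3 between 1.11 and 1.12 CPM.

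In the bin1 cohort, Hk1 in untreated Bin1 mck-/- replicate 4 was high at 28.1 CPM, with the other 3 between 15.6 and 17.1 CPM. Treated Bin1 mck-/- replicate 2, the mouse with bone transcripts, was low for Tpi1, at 1499 CPM, with the other 3 between 2115 and 2262 CPM, and for Eno3, at 6214 CPM, with the other 3 between 8281 and 8781 CPM. WT replicate 6 was low for Pgam1, at 0.174 CPM, with the other 3 between 0.447 and 0.482 CPM, and high for Fbp2, at 46.4 CPM, with the other 3 between 36.1 and 37.1 CPM.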

How the results depend on the processing

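Where counts of members called moved, the cause was not tested. The share of all genes called stands in parentheses. Leaving out 1 mouse gave 11 to 19 called members for the Dnm2 mutation (13% to 25.2%), 8 to 16 for tamoxifen in WT (17.7% to 30.8%), 0 to 4 for tamoxifen in Dnm2 S619L/+ (2.35% to 16.4%), 19 to 23 for treated Dnm2 S619L/+ against WT (18.9% to 35.1%) and 0 for the interaction (0.0064% to 1.87%). It gave 0 to 6 for the Bin1 deletion (0.119% to 5.03%), 1 to 14 for tamoxifen in Bin1 mck-/- (1.05% to 8.3%), 0 to 2 for treated Bin1 mck-/- against WT (0.277% to 1.75%), 0 to 1 for the difference between the mutations (0.0795% to 0.943%) and 0 to 14 for the difference between the tamoxifen effects (0.0367% to 13.5%). Muscle-marker scaling, chosen after seeing the data, gave 9 for the Dnm2 mutation (17.5%), 3 for tamoxifen in WT (34.5%) and 11 for treated Dnm2 S619L/+ (34.5%), where Gyg reversed to a log2 fold change of 0.0132 for tamoxifen in WT and 0.0629 for treated Dnm2 S619L/+, and Ldha to 0.0629 for tamoxifen in WT. Library size alone gave 13 for treated Dnm2 S619L/+ (42.5%), with Gyg reversed to 0.0401, and 1 for each difference between cohorts (2.27% and 1.42%). Mice with Xist only, also chosen after seeing the data, which leaves as few as 2 per group and so changes sex and group size at once, gave 1, 5, 0 and 5 in the 4 comparisons of the dnm2 cohort in the order above (6.98%, 13.8%, 0.49% and 6.82%). Sex as a term gave 19, 17, 1 and 21 (23.4%, 30.1%, 3.34% and 21.2%). DESeq2 gave 7, 11 and 3 in the bin1 cohort (8.03%, 8.19% and 3.67%), 2 for the interaction (2.12%) and 2 and 7 for the differences between cohorts (1.4% and 7.91%). Fitting only the groups compared gave 8, 1 and 2 in the bin1 cohort (10.1%, 0.848% and 0.847%) and 0 for tamoxifen in Dnm2 S619L/+ (0.21%), as did no filter on low counts (2.6%). The filter of the study (above 10 reads in 90% of mice) gave 3 (3.91%) and RLE scaling 1 (1.8%) for the difference between tamoxifen effects. Same-numbered mice deviated together, with a correlation above 0.1, in 9 of 24 pairs in the dnm2 cohort and 1 of 4 in the bin1 cohort. Differently numbered mice did so in 22 of 72 and 5 of 44 pairs. The median correlation was 0.026 for same-numbered and 0.004 for other pairs in the dnm2 cohort, and -0.05 and 0.005 in the bin1 cohort. With the replicate block 18, 12, 1 and 21 members were called in the dnm2 cohort (18.4%, 24.8%, 5.5% and 25.7%), 0 for the interaction (0.0648%), and 2 for tamoxifen in Bin1 mck-/- (1.06%). The gene counts limit Aldoc and Pgam1, both near or below 2 CPM.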

Other observations

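Ldhd was lower on tamoxifen in all 3 genotypes, a gene of the wider pathway list rather than of the 36. It had 68.1, 72.6, 69.9 and 71.6 CPM in untreated WT mice and 34.98, 32.3, 40.5 and 44.1 CPM in WT mice on tamoxifen (log2 fold change -0.89 ± 0.10 (SE), adjusted p = 0.000177, edgeR). In Dnm2 S619L/+ mice it had 89.001, 100.2, 102 and 87.1 CPM on placebo and 47.8, 47.5, 48.7 and 59.1 CPM on tamoxifen. In Bin1 mck-/- mice it had 113, 110.3, 104 and 111 CPM on placebo and 66.5, 59.4, 57.1 and 56.7 CPM on tamoxifen. Treated and untreated mice did not overlap in any genotype. The part of the bone and tendon signal was not tested.

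Bin1 itself had 487, 499, 505 and 508 CPM in WT mice on placebo of the dnm2 cohort and 804, 1085, 719.6 and 887 CPM in untreated Dnm2 S619L/+ mice, all above WT. In edgeR it was called higher there (log2 fold change 0.81, adjusted p = 0.00177). With tamoxifen it was called lower in Dnm2 S619L/+ mice (log2 fold change -0.51, adjusted p = 0.0479, edgeR) and in Bin1 mck-/- mice (-0.46, adjusted p = 0.0466, edgeR). Both calls lay just inside the threshold. In WT mice Bin1 was lower on tamoxifen without overlap but not called (log2 fold change -0.31, adjusted p = 0.137, edgeR). The interaction was not called either (-0.20, adjusted p = 0.742, edgeR). Dnm2 was called in none of the comparisons.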
